A study of Homo sapiens with 28 samples.

Results

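Of the 105048 accessible regions (peaks) in the consensus table of this ATAC-seq study of olaparib resistance, 3317 lie on chromosome 14 and were followed here. All cells were Kuramochi, an established cell line of high-grade serous ovarian cancer labelled epithelial and BRCA2-mutant, so the mutation is shared by every group, controls included. The 7 populations named T5 to T320 were adapted to the PARP inhibitor olaparib at 5, 10, 20, 40, 80, 160 or 320 uM, the dose in each name, kept at it and sorted for low CD24 and high CD44. P10 and P320 are drug-naive cells given 10 or 320 uM olaparib for 9 days, with no sort named. C is the untreated population, which was sorted on the same markers, by a gate that the labels do not give. Each of these 10 groups has 2 libraries, and a value given at a dose in uM with no other name belongs to the population adapted to it. The sort cannot be told apart from adaptation in T against C, nor from the 9-day exposure in P10 and P320 against C. The 8 samples of T320 cells with drug withdrawn or given again were not analysed here. Chromosome 14 was chosen because its peaks were raised at middle doses and less so in T320. Every value of the T populations against C or against each other thus describes what the choice used and carries no test of chromosome 14. Peaks called gained or lost in these comparisons are listed as a description only. The values of P10 and P320 did not enter that choice, although both are set against the same 2 C libraries.

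ATAC-seq counts where the transposase Tn5 inserts sequencing adapters into open chromatin, which marks promoters, enhancers and other regulatory sites. Chromosome 14 is acrocentric, so its protein-coding genes all lie on the long arm. They include REC8, a cohesin subunit of meiosis, RAD51B, XRCC3 and the PARP enzyme PARP2, which act in DNA repair, the stress regulators HIF1A and FOS, the growth kinase AKT1, and an imprinted cluster between DLK1 and DIO3.

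The sequences of 5 promoters are shown because their peaks stood out from their surroundings. REC8 (chr14:24171830-24172129) and FAM181A (chr14:93927094-93927393) have promoter peaks that fell far below their surroundings in the adapted populations, while TRAF3 (chr14:102777199-102777498), EML1 (chr14:99793163-99793462) and CDC42BPB (chr14:103057500-103057799) have promoter peaks that rose far above theirs after 9 days of drug. Each runs from 250 bases before to 50 bases after the gene's start in RefSeq, build GRCh38.p14, and is written 5′ to 3′ on the strand of the gene, the minus strand for CDC42BPB and the plus strand for the others. Capitals mark the GC box GGGCGG and the CCAAT box CCAAT, on either strand.
REC8: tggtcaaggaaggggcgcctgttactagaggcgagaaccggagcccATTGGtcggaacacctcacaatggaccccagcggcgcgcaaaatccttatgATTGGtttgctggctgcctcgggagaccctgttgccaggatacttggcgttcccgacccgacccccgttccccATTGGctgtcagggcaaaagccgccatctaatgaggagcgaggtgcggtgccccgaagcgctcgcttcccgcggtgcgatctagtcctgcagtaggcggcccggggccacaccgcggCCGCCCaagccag
FAM181A: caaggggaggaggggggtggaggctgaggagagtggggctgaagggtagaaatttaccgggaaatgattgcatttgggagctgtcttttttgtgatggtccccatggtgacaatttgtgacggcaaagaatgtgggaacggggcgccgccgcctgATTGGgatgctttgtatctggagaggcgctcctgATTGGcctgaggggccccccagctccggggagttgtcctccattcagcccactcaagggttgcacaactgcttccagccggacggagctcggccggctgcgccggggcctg
TRAF3: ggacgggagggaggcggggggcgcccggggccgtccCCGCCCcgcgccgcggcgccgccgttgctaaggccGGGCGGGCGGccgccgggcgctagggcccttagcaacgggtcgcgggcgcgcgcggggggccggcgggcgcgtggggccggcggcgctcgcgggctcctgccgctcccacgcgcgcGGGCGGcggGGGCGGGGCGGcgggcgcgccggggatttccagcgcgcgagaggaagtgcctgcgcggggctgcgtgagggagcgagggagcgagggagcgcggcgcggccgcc
EML1: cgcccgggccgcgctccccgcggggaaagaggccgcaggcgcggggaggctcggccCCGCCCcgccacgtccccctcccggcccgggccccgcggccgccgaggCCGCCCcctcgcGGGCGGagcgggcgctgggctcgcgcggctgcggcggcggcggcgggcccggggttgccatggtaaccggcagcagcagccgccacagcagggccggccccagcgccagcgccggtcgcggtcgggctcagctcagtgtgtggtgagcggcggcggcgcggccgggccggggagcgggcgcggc
CDC42BPB: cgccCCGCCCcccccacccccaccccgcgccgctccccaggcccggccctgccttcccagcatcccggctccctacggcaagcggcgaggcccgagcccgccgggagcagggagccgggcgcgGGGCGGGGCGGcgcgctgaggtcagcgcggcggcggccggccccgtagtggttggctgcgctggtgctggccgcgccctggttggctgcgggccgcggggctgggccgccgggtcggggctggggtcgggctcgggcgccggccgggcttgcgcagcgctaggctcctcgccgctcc
Also searched on both strands were the AP-1 site (TGACTCA or TGAGTCA), the cyclic AMP response element TGACGTCA, the E-box CACGTG and the TATA box TATAAA, and none of these 4 motifs occurred in the 5 sequences. The TRAF3 window held 6 GC boxes, EML1 and CDC42BPB 3 each, REC8 1 and FAM181A 0. REC8 held 3 CCAAT boxes, FAM181A 2 and the other three 0. Among all 35116 RefSeq promoter windows, 44.95% held a GC box, 34.61% a CCAAT box, 11.53% a TATA box, 7.26% an E-box, 4.95% an AP-1 site and 1.85% the cyclic AMP element. GC content was 86% at TRAF3, 85.3% at EML1 and 83.3% at CDC42BPB, against 64.3% at REC8 and 60.7% at FAM181A, and the median of all windows was 58.7%. The REC8, FAM181A, EML1 and CDC42BPB windows lie wholly inside their peaks, whereas only 40 of the 300 bases of the TRAF3 window do.

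Total counts ran from 9627970 to 29699950 per library, and the 2 libraries of each group differed by more than sampling noise. In C and in every T group replicate 1 had fewer counts than replicate 2. The C libraries had 11347046 and 22218981, those of P10 22184883 and 22437074, and those of P320 29699950 and 27936456. C replicate 1 was thus the shallowest library in P10 and P320 against C, and the part of depth was not tested. Of 14 epithelial and Mullerian marker genes 13 had a peak, with summed signal of 179 to 241 CPM (read counts relative to library size) over the T libraries, 334 to 416 CPM over P10 and P320 and 254 to 344 CPM in C. Among 12 leukocyte markers 9 had no peak, PTPRC and CD3E among them, and the other three (CD14, CSF1R and ITGB2) summed to 22.6 to 48.1 CPM over the T libraries, with 45.1 and 48.1 CPM in T320, and to 54.3 and 50.8 CPM in P10, 23.8 and 25.7 CPM in P320 and 28.7 and 22.8 CPM in C. On chromosome 14, of the granule proteases of leukocytes and mast cells, CTSG and CMA1 had no peak, and neither had the cardiac myosins. GZMB and GZMH together had 7.85 and 9.02 CPM in P10, 9.67 and 10.6 CPM in P320 and 11.7 and 14.1 CPM in C. Over the T libraries they had 4.35 to 9.48 CPM, all under both C libraries, with 7.11 and 4.35 CPM in T320. The part of these differences in the results below was not tested.

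In kind and width the peaks of chromosome 14 were close to those elsewhere. By RefSeq positions 446 of the 3317 (13.4%) overlap a promoter, 123 lie within 1 kb of either end of a gene outside its promoter and are called gene-end peaks, 2548 (76.8%) are distal, more than 1 kb from all gene ends, and 200 are of other kinds. On the other chromosomes 12.8% overlap a promoter. The median width was 1117 bp on chromosome 14 and 1119 bp elsewhere, and 1817 peaks (54.8%) lie inside a protein-coding gene. The first peak starts at 19743078 and the last ends at 106879666 (GRCh38, as deposited). Only 6 peaks had a count of 0 in any library.

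The median peak of chromosome 14 gained signal at middle doses and was close to C again at 320 uM. The shift of a library is the median, over the chromosome's peaks, of its log2 CPM minus the mean of C. It was -0.03 and 0.04 in the 2 libraries at 5 uM, 0.27 and 0.38 at 10 uM, 0.47 and 0.52 at 20 uM, 0.50 and 0.46 at 40 uM, 0.38 and 0.35 at 80 uM, 0.22 and 0.22 at 160 uM and 0.04 and 0.11 at 320 uM, with the C libraries at -0.02 and 0.02. All libraries from T10 to T320 lay above both C libraries, T20 and T40 highest. In P10 the shifts were -0.08 and -0.11, and in P320 -0.07 and -0.08, against -0.02 and 0.02 in C, about where the median over all peaks lay in these libraries (-0.07 to -0.09). Chromosome 14 held 3.72% and 3.95% of all counts in T20, 2.83% and 2.93% in T320, and 2.75% and 2.83% in C. A count per peak cannot tell apart more copies of a stretch of DNA, more cells in which it is open and more signal per cell.

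**Figure D1:**
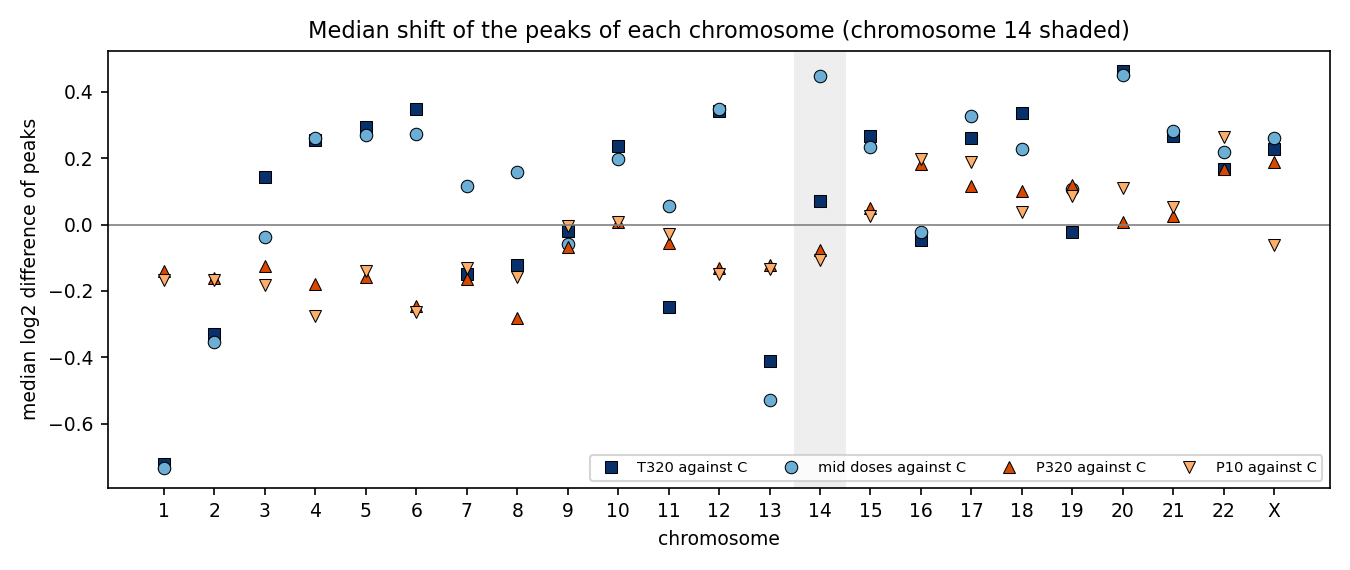
Median log2 difference of the peaks of each chromosome, in T320, the middle doses (mean of T20, T40 and T80), P320 and P10, each against C. Chromosome 14, shaded, is at 0.45 for the middle doses, second to chromosome 20, and at 0.07 for T320.

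The middle doses are summarised below as the mean of T20, T40 and T80. Against C their median over chromosome 14 was 0.45, where all 105048 peaks had 0.02. That was the second highest of 23 chromosomes, at 0.447 against 0.450 for chromosome 20. The median of T320 against C was 0.07, the 14th highest. T320 against the middle doses had -0.39, the lowest of the 23 chromosomes, where all peaks had -0.03 and the next lowest, chromosome 11, had -0.30. Chromosome 20 had 0.0035 there. When library scaling was taken from promoter and gene-end peaks alone, the median of all peaks itself moved to -0.12 for the middle doses against C and to -0.54 for P320 against C. Relative to that median, chromosome 14 kept 0.42 at the middle doses and -0.37 for T320 against them.

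The gain was not spread evenly along the chromosome. Over the 886 peaks before 40 Mb, a split chosen with these results known, the median shift was 0.07 and -0.03 in the libraries at 20 uM, -0.05 and -0.10 at 40 uM, -0.10 and -0.17 at 80 uM and -0.44 and -0.42 at 320 uM, with C at -0.01 and 0.01. Over the 2431 peaks after 40 Mb it was 0.64 and 0.78 at 20 uM, 0.67 and 0.72 at 40 uM, 0.55 and 0.60 at 80 uM and 0.22 and 0.34 at 320 uM, with C at -0.02 and 0.02. The first stretch thus stayed nearer to C through 160 uM and lay clearly under it in T320, while the second stood above C from T10 on and remained above it in T320. The step between the middle doses and T320 was nearly the same in both, with a median of -0.37 before and -0.40 after 40 Mb. Means over the 2 libraries after 40 Mb were 0.44 ± 0.09 at 10 uM, 0.71 ± 0.10 at 20 uM, 0.70 ± 0.04 at 40 uM, 0.57 ± 0.03 at 80 uM, 0.35 ± 0.01 at 160 uM and 0.28 ± 0.08 at 320 uM (SD, n = 2).

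**Figure D2:**
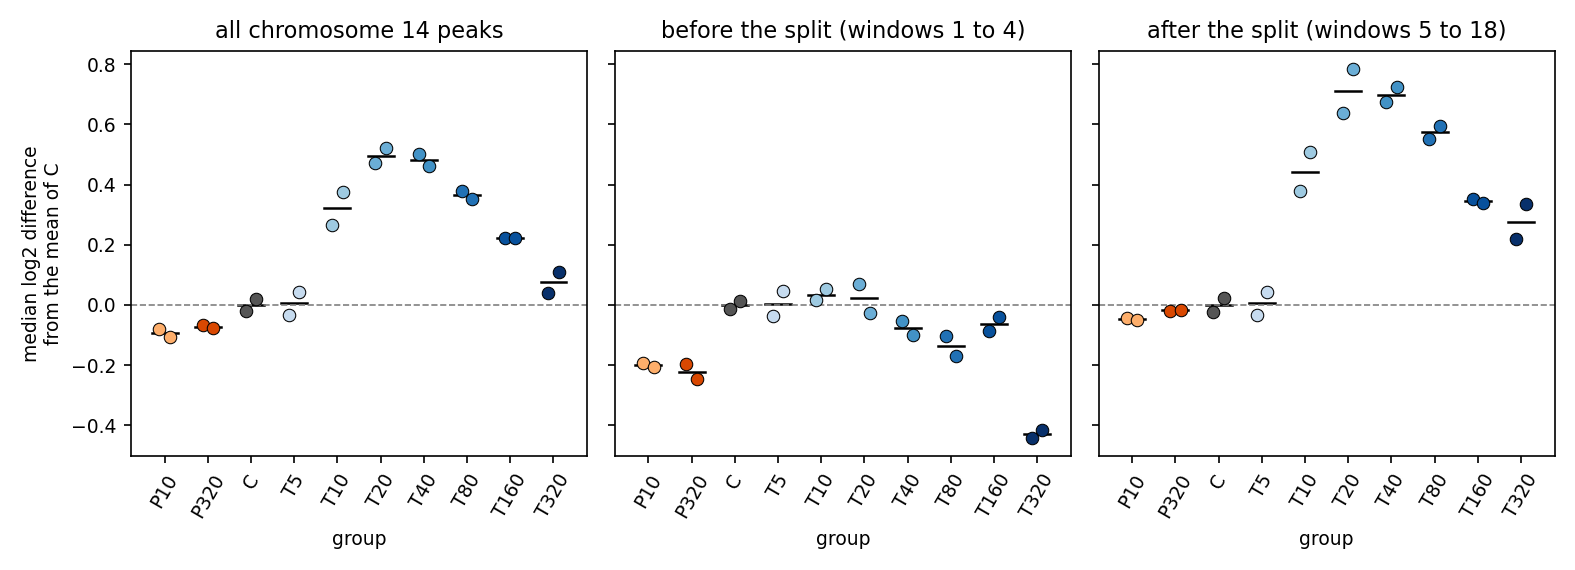
Median log2 difference of each library from the mean of C, for all chromosome 14 peaks, those before 40 Mb (windows 1 to 4) and those after it (windows 5 to 18); points are libraries and bars are the means of 2. The right panel peaks at T20 and T40, while in the middle panel the adapted populations lie near C up to T160 and lowest in T320.

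The 9-day groups lay under C in the first stretch. Before 40 Mb the P10 libraries had -0.19 and -0.21 and the P320 libraries -0.20 and -0.25, against -0.01 and 0.01 in C, so all 4 lay under both C libraries. After 40 Mb P10 had -0.04 and -0.05 and P320 -0.02 and -0.02, against -0.02 and 0.02 in C. There P10 lay just under both C libraries and P320 between them. The rise of chromosome 14 after 40 Mb seen in the adapted T10 population had no counterpart in the median of P10 cells, which had received the same dose for 9 days. Whether the dose acts differently in the adapted and the 9-day cells was not tested.

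Chromosome 14 was followed in 5 Mb windows, counted from position 1, of which 18 held at least 20 peaks. The first is 20 to 25 Mb, with 301 peaks, and the last 105 to 110 Mb, with 68. A window is called raised or lowered when the median difference of its peaks is at least 0.25 on the log2 scale. At the middle doses all 14 windows after 40 Mb were raised, from 0.33 at 75 to 80 Mb to 1.05 at 85 to 90 Mb, and the 4 before it lay between -0.24 and 0.13. On the other chromosomes 205 of 555 windows were raised and 132 lowered. The window from 20 to 25 Mb, at -0.24, missed the limit narrowly, and that from 75 to 80 Mb was the raised one nearest to it.

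By dose, 1 of the 18 windows was raised at 5 uM, 12 at 10 uM, 15 at 20 uM, 14 at 40 uM, 13 at 80 uM, 11 at 160 uM and 8 at 320 uM, while 1 each was lowered at 5, 40 and 80 uM and 4 at 320 uM. Of the 555 windows on the other chromosomes, 66 were raised and 58 lowered in T5, 120 and 98 in T10, and 189 and 128 in T20. The counts there were 228 and 142 in T40, 218 and 131 in T80, 192 and 115 in T160, and 205 and 150 in T320. The 4 lowered in T320 were those before 40 Mb, at -0.51, -0.50, -0.35 and -0.44 from the first to the last. The 8 still raised in T320 lay between 45 and 90 Mb, from 0.27 at 80 to 85 Mb to 0.62 at 85 to 90 Mb. The windows after 90 Mb were between -0.15 and 0.18 in T320, although they had been between 0.40 and 0.63 at the middle doses. T320 against the middle doses was lowered in 17 windows, by 0.26 to 0.72, and at -0.24 in the window from 20 to 25 Mb, where 63 of the 555 windows elsewhere were lowered and 28 raised.

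**Figure D3:**
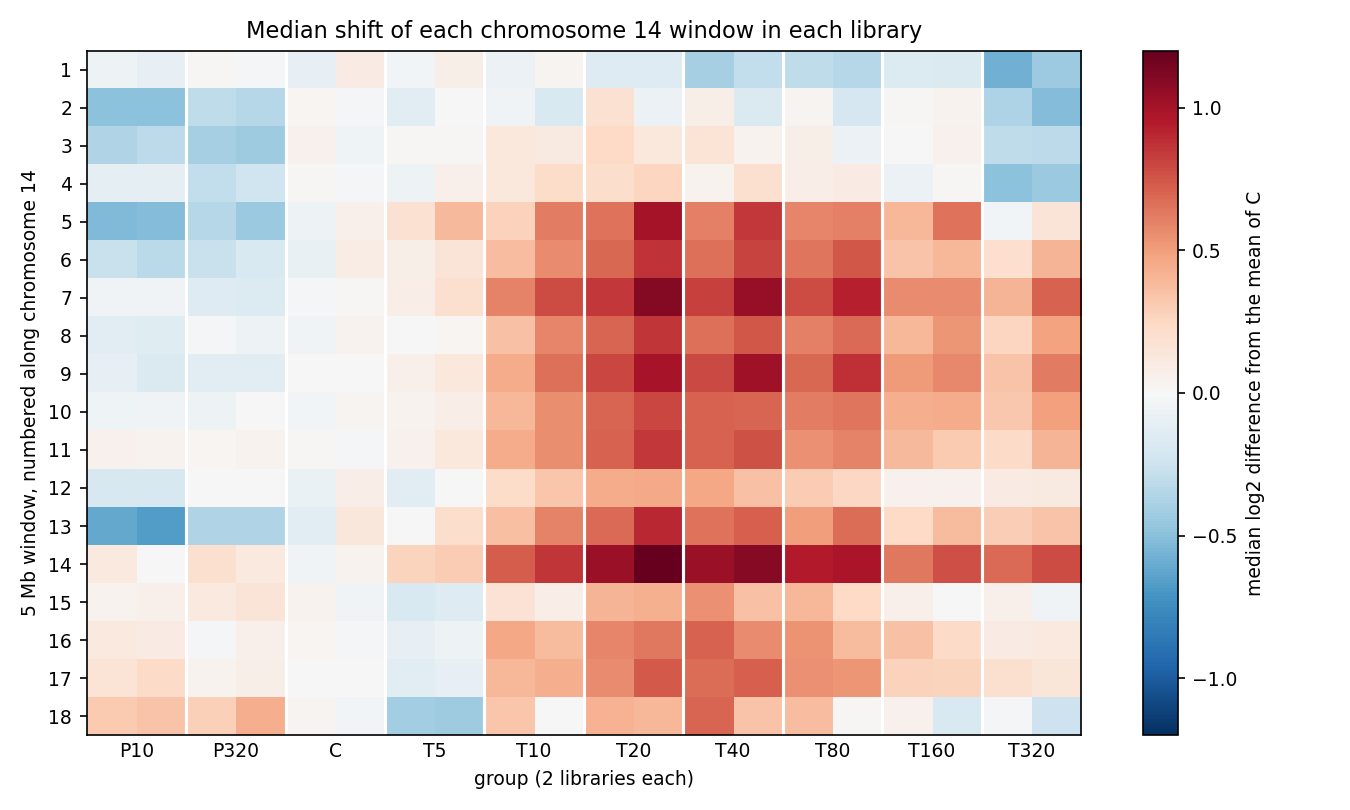
Median log2 difference from the mean of C in each of the 18 followed windows (rows, in order along the chromosome) and each of the 20 libraries (columns). Windows 5 to 18 are red in T20 and T40, window 14 (85 to 90 Mb) most, and windows 1 to 4 turn blue in T320.

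The window from 85 to 90 Mb held 89 peaks, 10 of them at promoters. Its shifts were -0.04 and 0.04 in C, 0.27 and 0.31 at 5 uM, 0.73 and 0.85 at 10 uM, 1.04 and 1.23 at 20 uM, 1.04 and 1.09 at 40 uM, 0.95 and 0.98 at 80 uM, 0.63 and 0.77 at 160 uM and 0.68 and 0.79 at 320 uM. It was above both C libraries in every adapted library, T5 included, and T320 lay close to T160. The window from 50 to 55 Mb, with 229 peaks, had 0.60 and 0.78 at 10 uM, 0.85 and 1.10 at 20 uM, 0.82 and 1.05 at 40 uM, 0.78 and 0.94 at 80 uM, 0.56 and 0.57 at 160 uM and 0.41 and 0.71 at 320 uM. The last window, 105 to 110 Mb, ran otherwise at the first step, with -0.41 and -0.43 at 5 uM, 0.42 and 0.40 at 20 uM and -0.02 and -0.25 at 320 uM against 0.03 and -0.03 in C. It was the window lowered in T5, and that from 40 to 45 Mb, at 0.33, was the one raised there.

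Promoter and high-count peaks lay above C at the middle doses more often than distal and low-count ones. The split by class and count was made after the data were seen. Promoters were higher elsewhere too. All promoter and gene-end peaks of the genome had 0.24 at the middle doses, where all peaks had 0.02. Before 40 Mb promoters had 0.05 and distal peaks -0.09. After 40 Mb the median of the middle doses against C was 0.81 over 330 promoter peaks, 94.5% of which were above 0, and 0.60 over 1879 distal peaks, 73.4% of which were. In 4 groups of rising mean count it was 0.37, 0.61, 0.72 and 0.80. T320 against the middle doses had -0.49 at these promoters, with 3.33% above 0, and -0.37 at distal peaks. The quartiles of the windows overlapped widely, as the plot of window profiles shows, and the spread of peaks around their own window median was near that elsewhere, with an interquartile range of 1.01 on chromosome 14 and 0.94 on the other chromosomes.

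**Figure D4:**
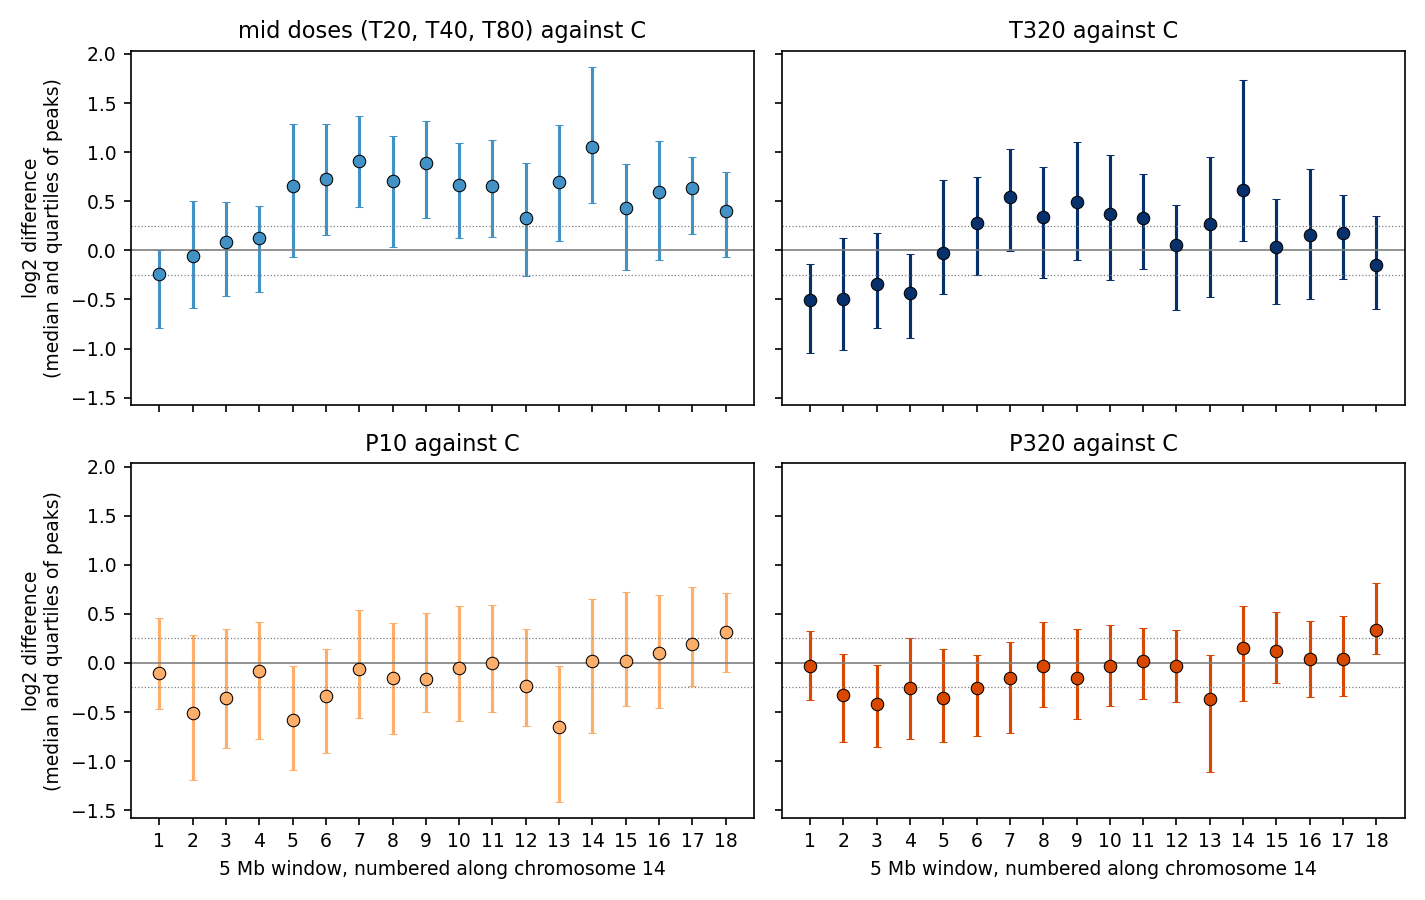
Median log2 difference of the peaks of each followed window, with bars to the lower and upper quartile, for the middle doses, T320, P10 and P320, each against C. Dotted lines mark 0.25 and -0.25; at the middle doses windows 5 to 18 lie above the upper line, and in P10 window 13 (80 to 85 Mb) is lowest at -0.65.

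In 1 Mb windows, also added after the data were seen, 66 held at least 20 peaks. The most raised at the middle doses was 83 to 84 Mb, a stretch with 22 peaks, at 1.85, and it had 1.31 in T320, -0.57 in P10 and -0.67 in P320. The lowest there were 97 to 98 Mb (22 peaks), at -0.71 amid raised 5 Mb windows, and 25 to 26 Mb (44 peaks), at -0.61. These had -0.92 and -0.91 in T320. Within 85 to 90 Mb stands a gene desert from 86 to 88 Mb, chosen after its values were seen, where 1 of 26 peaks lies inside a gene.

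The summed signal of those 26 desert peaks was 47.6 and 38.5 CPM in C, 64.4 and 61.0 at 5 uM, 119 and 136 at 10 uM, 160 and 207 at 20 uM, 179 and 196 at 40 uM, 166 and 198 at 80 uM, 128 and 128 at 160 uM and 144 and 199 CPM at 320 uM. All adapted libraries lay above both C libraries, and T320 did not return to the C level. All 26 peaks were higher at the middle doses than in C, with a median of 2.38, and 25 were higher in T320, with a median of 2.46. In P10 the sums were 44.2 and 41.8 CPM, within the range of C, and in P320 56.5 and 51.1 CPM, above both C libraries. Over the single peaks the medians were 0.02 in P10 and 0.19 in P320.

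The comparisons of P10 and P320 with C ask what 9 days of drug do to the same regions. Counts summed in each window were tested with edgeR's quasi-likelihood test, with Benjamini-Hochberg adjustment over all 597 windows of the genome. From here on, ± after a log2 fold change is its standard error in the fit, from a spread estimated over all groups together. In P10, 10 of the 18 windows passed at an adjusted p under 0.05, 3 higher and 7 lower, where 57% of all windows passed, 25.8% higher and 31.2% lower. In P320, 7 passed, 3 higher and 4 lower, against 44.9% of all windows, 20.3% higher and 24.6% lower. The shares on chromosome 14 were thus near those of the genome. Without P10 replicate 1 or P10 replicate 2 the P10 count was 6 in each case.

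The window from 80 to 85 Mb, which covers a large gene desert, fell most in P10. It had 466 and 464 CPM in P10 and 549 and 544 CPM in P320, against 622 and 701 CPM in C, so neither 9-day group overlapped C. The log2 fold change was -0.51 ± 0.06 in P10 (adjusted p = 1.4e-05) and -0.28 ± 0.06 in P320 (adjusted p = 0.00245), and both calls held without any one library. Its 111 peaks had been raised by 0.70 at the middle doses. The window from 40 to 45 Mb had 269 and 269 CPM in P10 and 299 and 284 CPM in P320, against 347 and 366 CPM in C. It fell by 0.41 ± 0.08 in P10 (adjusted p = 0.000653) and by 0.29 ± 0.08 in P320 (adjusted p = 0.00817), and the P320 call was lost without C replicate 2 (adjusted p = 0.053) or P320 replicate 2 (adjusted p = 0.0668). At 25 to 30 Mb the fall was 0.27 in P10 (adjusted p = 0.00244) and 0.28 in P320 (adjusted p = 0.00258).

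By summed counts the end of the chromosome rose instead. The median of the peaks at 105 to 110 Mb rose by 0.32 in P10 and 0.34 in P320. At 100 to 105 Mb that median was 0.20 in P10 and only 0.04 in P320. At 105 to 110 Mb the sums were 1175 and 1205 CPM in P10 and 1301 and 1382 CPM in P320, against 977 and 914 CPM in C, with no overlap. The log2 fold change was 0.33 ± 0.08 in P10 (adjusted p = 0.00206) and 0.51 ± 0.08 in P320 (adjusted p = 0.000202), and both held without any one library. At 100 to 105 Mb it was 0.35 ± 0.05 in P10 (adjusted p = 0.000109) and 0.21 ± 0.05 in P320 (adjusted p = 0.00605), the second of which was lost without C replicate 2 (adjusted p = 0.0527). The third rise in P10, 0.11 at 65 to 70 Mb (adjusted p = 0.0176), was lost when any one library was left out, with adjusted p up to 0.134, and there the median of the peaks had the other sign, -0.06. The third in P320, 0.14 at 85 to 90 Mb (adjusted p = 0.0279), was lost without C replicate 1, where the adjusted p was 0.221, and without either P320 library.

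Of the other windows lower in P10, that at 75 to 80 Mb (-0.13, adjusted p = 0.00604) held without any one library. Those at 30 to 35, 45 to 50 and 55 to 60 Mb (-0.13, -0.22 and -0.11) each passed in 1 of the 4 fits that leave out a library. The window from 30 to 35 Mb was also lower in P320, at -0.21 (adjusted p = 0.00295). P320 against P10 shares no library with the choice of this chromosome. There 3 windows were higher and 0 lower, where 8.71% of all windows passed, 6.03% higher and 2.68% lower, and none of the 3 passed when any one library was left out. They lay at 55 to 60, 75 to 80 and 80 to 85 Mb, with 0.16, 0.16 and 0.23.

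Single peaks were called gained or lost when their log2 fold change reached 1 in either direction with an adjusted p under 0.05, the adjustment running over all 105048 peaks. Comparisons of T populations with C or each other entered the choice of chromosome 14, so nothing is read from their counts. At the middle doses 767 chromosome 14 peaks (23.1%) were gained and 246 (7.42%) lost, against 11.7% and 14.9% of all peaks. Of the gained, 701 lay after 40 Mb and 66 before it. In T320 against C 484 were gained and 422 lost, where all peaks had 15% and 15.5%. In T320 against the middle doses 37 were gained and 217 lost, where 6.44% of all peaks were called, 4.12% gained and 2.32% lost. With an offset that removes each window's median shift, the middle doses had 336 gained and 421 lost, and T320 against them 113 gained and 49 lost. Scaled on promoter and gene-end peaks, T320 against the middle doses had 54 gained and 129 lost, and without T320 replicate 2 it had 5 gained and 126 lost.

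In P10 320 peaks (9.65%) were gained and 426 (12.8%) lost, where 9.32% and 12.8% of all peaks were. In P320 132 (3.98%) were gained and 286 (8.62%) lost, against 3.94% and 7.91% of all peaks. P320 against P10 had 138 gained (4.16%) and 331 lost (9.98%), against 4.1% and 9.68%. These shares lie close to those of all peaks. Scaled on promoter and gene-end peaks, the splits were 194 gained and 534 lost in P10, 33 and 720 in P320, and 59 and 471 in P320 against P10. The totals mostly fell when any one library was left out, which leaves 1 in its group, while that of P10 rose without C replicate 1. P10 had 419 calls without C replicate 2 and 493 without P10 replicate 2. P320 had 206 without P320 replicate 1 (108 gained, 98 lost) and 226 without P320 replicate 2 (115 gained, 111 lost). P320 against P10 had 257 and 244 without P10 replicates 1 and 2, and 192 and 232 without P320 replicates 1 and 2.

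Some peaks moved against the windows they lie in. Outlying peaks are those whose log2 fold change departed most from their window median, among peaks of at least 2 CPM whose groups do not overlap. The REC8 promoter peak, 24171341 to 24173203, had 44.8 and 58.5 CPM in C, 45.0 and 51.4 at 5 uM, 38.8 and 35.1 at 10 uM, 21.9 and 11.7 at 20 uM, 8.21 and 9.64 at 40 uM, 17.6 and 17.3 at 80 uM, 32.6 and 40.3 at 160 uM and 9.42 and 4.26 CPM at 320 uM. It lay under both C libraries from T10 on, partly recovered in T160 and was lowest on average in T320. Its log2 fold change was -1.91 ± 0.21 at the middle doses and -2.97 ± 0.31 in T320. P10 had 59.4 and 58.4 CPM and P320 58.5 and 57.4 CPM, against 44.8 and 58.5 CPM in C, with differences of 0.19 and 0.16 that were not called.

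The FAM181A promoter peak, 93925658 to 93928026, followed a steadier course. It had 22.3 and 27.1 CPM in C, 18.4 and 18.9 at 5 uM, 11.9 and 8.68 at 10 uM, 11.6 and 5.46 at 20 uM, 8.91 and 4.34 at 40 uM, 9.00 and 4.58 at 80 uM, 9.42 and 7.37 at 160 uM and 7.28 and 2.46 CPM at 320 uM. All adapted libraries lay under both C libraries. P10 had 26.3 and 25.02 CPM and P320 27.8 and 26.3 CPM, overlapping C, and neither was called. A peak inside ACTN1, which encodes the actin cross-linker alpha-actinin, at 68888027 to 68889157, had 25.2 and 34.3 CPM in C, 9.71 and 8.87 already at 5 uM, 4.45 and 2.50 at 10 uM and 4.79 and 1.25 CPM at 320 uM. It had the lowest departure at the middle doses, with a log2 fold change of -2.87 ± 0.34 (-3.43 ± 0.51 in T320). P10 had 20.9 and 23.3 CPM there and P320 24.7 and 24.8 CPM, under both C libraries but not called. Near SERPINA5, a protease inhibitor, a peak at 94575408 to 94576681 changed by -2.74 ± 0.21 at the middle doses, in a window raised by 0.43.

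**Figure D5:**
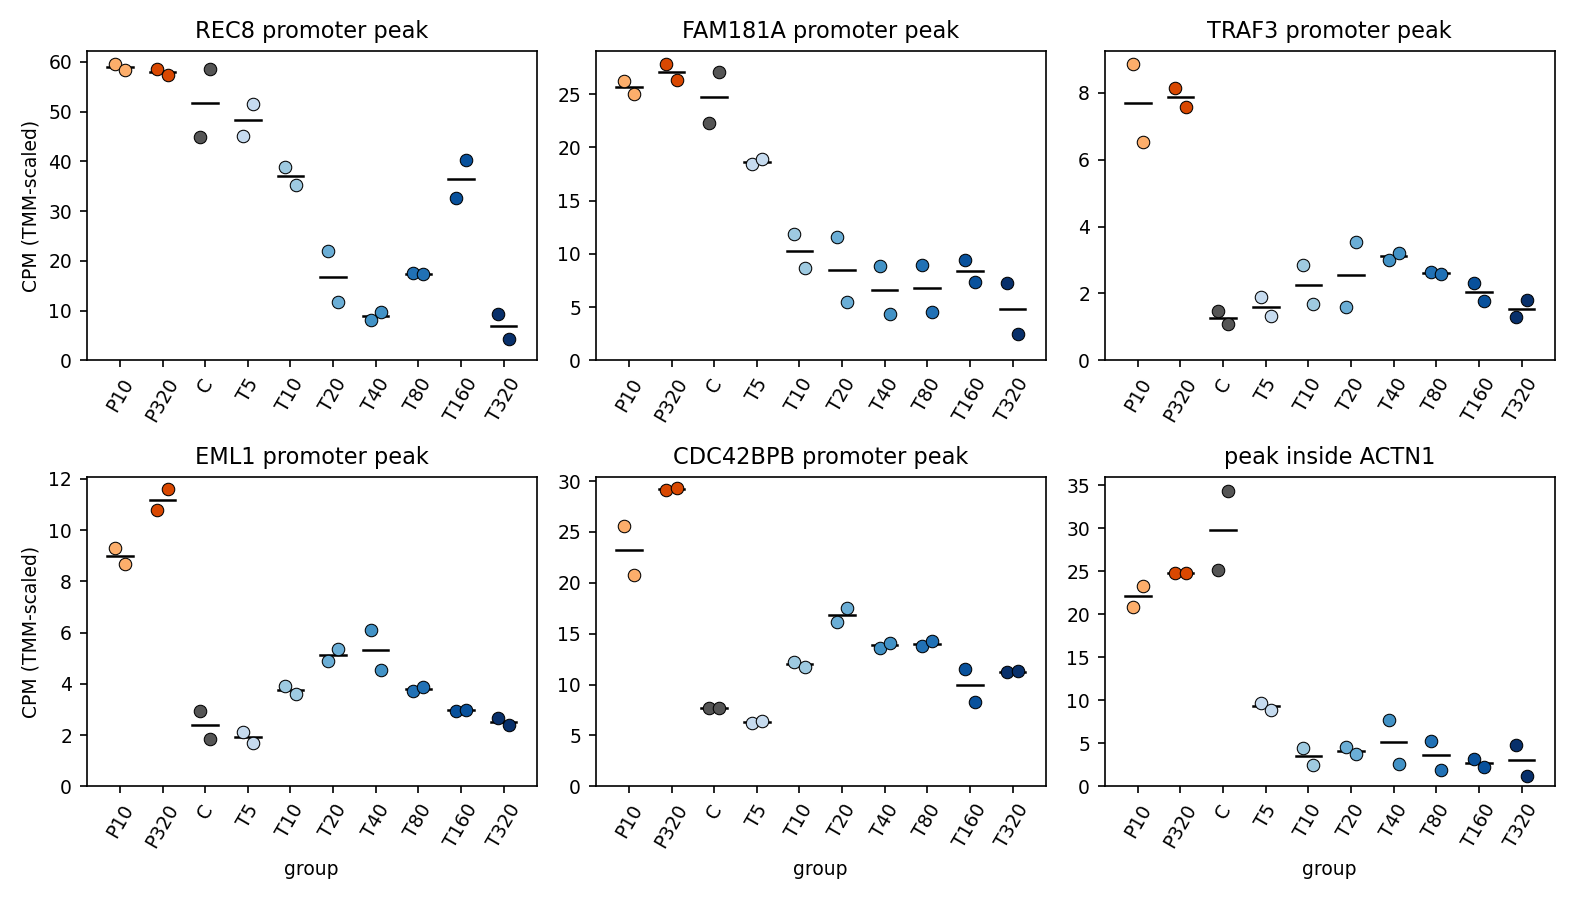
CPM of 6 outlying peaks in every library; points are libraries, bars the means of 2, and each panel has its own axis from 0. FAM181A and the peak inside ACTN1 are low in the adapted populations and not in P10 and P320. REC8 is low in T20 to T80 and T320, less so in T10 and T160, and near C in T5, P10 and P320. TRAF3, EML1 and CDC42BPB are highest in P10 and P320.

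Other peaks outgrew their windows. In a gene desert, a peak at 83556520 to 83557794 had 2.38 and 0.943 CPM in C, 6.10 and 4.45 at 5 uM, 15.4 and 18.7 at 10 uM, 21.2 and 29.6 at 20 uM, 17.5 and 26.7 at 40 uM, 14.9 and 21.7 at 80 uM, 15.5 and 17.5 at 160 uM and 14.6 and 24.4 CPM at 320 uM. It rose at the first dose and did not come back in T320. P10 had 1.37 and 1.00 CPM and P320 0.741 and 0.595 CPM, and P320 lay under both C libraries, although that change of -1.198 was not called (adjusted p = 0.0828). Its neighbour at 83520766 to 83521574 had 0.164 and 0.519 CPM in C, 6.99 and 11.4 CPM at 20 uM and 1.37 and 1.93 CPM at 320 uM, and thus returned most of the way. At XRCC3, a gene of homologous recombination, the gene-end peak at 103696159 to 103697554, which also lies inside KLC1, had 3.94 and 2.92 CPM in C, 18 and 22.5 CPM at 40 uM and 8.22 and 9.45 CPM at 320 uM.

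A pair of peaks inside DGLUCY, which encodes D-glutamate cyclase, followed different courses. That at 91149221 to 91150211 had 1.48 and 1.23 CPM in C, 14.6 and 21.6 at 20 uM, 12.4 and 17.4 at 160 uM and 8.99 and 8.07 CPM at 320 uM, while that at 91126904 to 91128038 had 1.48 and 1.13 CPM in C, 4.41 and 1.82 at 20 uM, 4.71 and 3.61 at 160 uM and 14.9 and 17.1 CPM at 320 uM. The gene-end peak of EIF2B2, a subunit of the exchange factor that the integrated stress response inhibits, had 1.97 and 1.13 CPM in C, 4.59 and 5.12 at 10 uM, 8.40 and 8.36 at 80 uM and 9.16 and 10.6 CPM at 320 uM (75011198 to 75012360). It did not drop after the middle doses. P10 had 3.97 and 3.23 CPM there and P320 1.73 and 2.08 CPM, against 1.97 and 1.13 CPM in C. The P10 gain of 1.26 ± 0.30 (adjusted p = 0.00367) was lost without C replicate 2 (0.867, adjusted p = 0.0939), and P320 was not called.

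T320 itself was marked by a few peaks that departed from the middle doses. Near STON2, an adaptor of endocytosis, the peak at 81246452 to 81248148 had 9.91 and 4.47 CPM at 20 uM, 9.81 and 5.97 at 40 uM, 7.30 and 6.40 at 80 uM, 9.00 and 7.32 at 160 uM and 22.3 and 26.7 CPM at 320 uM, with 21.3 and 15.6 CPM in C. It was thus low through the middle of the series and back above C in T320. The reverse held 62122 bp from TMEM260, where the peak at 56515659 to 56517403 had 4.76 and 4.62 CPM in C, 17.1 and 22.9 at 20 uM, 11.2 and 12.5 at 160 uM and 2.65 and 2.60 CPM at 320 uM. Inside TMED10, a protein of the early secretory pathway, that at 75147268 to 75148483 had 16.6 and 23.3 CPM at 20 uM, 6.96 and 5.75 at 160 uM and 3.77 and 2.55 CPM at 320 uM, with 9.36 and 11.9 CPM in C.

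The peaks that departed most in the 9-day groups were partly other ones. At the TRAF3 promoter, a gene whose product restrains NF-kB signalling, the peak at 102777459 to 102778507 had 8.86 and 6.54 CPM in P10 and 8.15 and 7.58 CPM in P320, against 1.48 and 1.08 CPM in C. It was gained by 2.61 ± 0.39 in P10 (adjusted p = 0.000137, edgeR) and by 2.64 ± 0.39 in P320 (adjusted p = 0.000222). The EML1 promoter, of a microtubule-binding protein, had 9.31 and 8.67 CPM in P10 and 10.8 and 11.6 CPM in P320, against 2.95 and 1.84 CPM in C (99792679 to 99794002). The gains were 1.94 ± 0.27 (adjusted p = 7.98e-05) and 2.26 ± 0.27 (adjusted p = 4.9e-05). At CDC42BPB, a kinase that acts downstream of the small GTPase CDC42, the values were 25.6 and 20.7 CPM in P10 and 29.2 and 29.3 CPM in P320, against 7.71 and 7.73 CPM in C (103056529 to 103058420), gains of 1.59 ± 0.18 and 1.92 ± 0.19. These 6 calls held without any one library. The log2 fold changes of the 3 peaks were 1.13, 1.00 and 0.94 at the middle doses and 0.32, 0.09 and 0.55 in T320.

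Some peaks inside genes were nearly closed in P10 and open in P320. Inside MDGA2, a neuronal adhesion protein, the peak at 47435277 to 47436095 had 0.441 and 0.174 CPM in P10 and 3.53 and 3.31 CPM in P320, against 3.36 and 5.23 CPM in C. It was lost in P10, by 3.79 ± 0.48 (adjusted p = 4.57e-05), and higher in P320 than in P10 by 3.45 ± 0.48 (adjusted p = 0.000154). Inside NPAS3, a neural transcription factor, that at 33477633 to 33478177 had 0.573 and 1.00 CPM in P10 and 5.79 and 5.13 CPM in P320, against 5.66 and 10.7 CPM in C, with -3.38 ± 0.41 in P10 (adjusted p = 3.21e-05) and 2.78 ± 0.41 for P320 against P10 (adjusted p = 0.000221). The opposite was seen inside DPF3, a subunit of BAF chromatin remodelling complexes, where P10 had 4.15 and 5.06 CPM and P320 0.847 and 0.929 CPM, against 0.985 and 0.236 CPM in C (72665114 to 72665810). The gain in P10 was 3.05 ± 0.48 (adjusted p = 0.000185), and P320 against P10 had -2.37 ± 0.42 (adjusted p = 0.000968). All these calls held without any one library.

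The promoter of the long non-coding RNA LINC02319, 52124727 to 52125658, had 1.73 and 1.97 CPM in P320, against 13.1 and 12.7 CPM in P10, while C had 3.86 and 3.06 CPM. The log2 fold change of P320 against P10 was -2.80 ± 0.32, with the groups far apart (adjusted p = 3.76e-05). The call held without any one library.

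Other peaks were lost in both 9-day groups. At 22403077 to 22404087, between genes, P10 had 0.529 and 0.567 CPM and P320 0.176 and 0.334 CPM, against 3.04 and 1.46 CPM in C, with -1.98 ± 0.47 in P10 (adjusted p = 0.00401) and -3.07 ± 0.51 in P320 (adjusted p = 0.000524). At 43734887 to 43736770, also between genes, P10 had 1.06 and 1.09 CPM and P320 0.635 and 0.186 CPM, against 4.35 and 1.84 CPM in C, with -1.46 in P10 (adjusted p = 0.0185, lost without C replicate 1 at 0.237 and without either P10 library) and -2.82 ± 0.50 in P320 (adjusted p = 0.000841). Both were higher at the middle doses than in C, by 1.55 and 2.31. Another peak, at 55951128 to 55951736, was low throughout, with 1.23 and 0.523 CPM in P10, 1.24 and 1.11 CPM in P320 and 0.856 and 0.538 CPM in T320, against 7.14 and 5.61 CPM in C. Its log2 fold changes were -2.85 ± 0.47 in P10 (adjusted p = 0.000271) and -2.43 ± 0.45 in P320 (adjusted p = 0.0012).

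Genes of the chromosome were grouped in lists by function, each gene represented by its promoter peak or, failing that, by a gene-end peak. The share called among all promoter and gene-end peaks was not computed, so the counts called per list are not read as enrichment. Over all peaks of any kind, 9.32% were gained in P10, 3.94% in P320 and 11.7% at the middle doses, and 15.5% were lost in T320. Stress, hypoxia and immediate early genes had 14 of 15 members with a peak. Of these 5 were gained in P320, 1 in P10 and 0 lost, with medians of 0.70 and 0.27, where all promoter and gene-end peaks of the genome had 0.35 and 0.13. NFKBIA, the inhibitor of NF-kB, had 75.3 and 72.5 CPM in P10 and 82.0 and 85.4 CPM in P320, against 42.0 and 40.3 CPM in C, and passed both limits in P320 alone (1.02 ± 0.17, adjusted p = 0.000475), where without C replicate 2 it had 0.994. BAG5, a co-chaperone whose peak is shared with COA8, had 23.3 and 24.3 CPM in P10 and 25.1 and 21.5 CPM in P320, against 8.70 and 9.76 CPM in C, and was gained in both (1.36 and 1.33, adjusted p = 4.98e-05 and 9.53e-05). GCH1, ERO1A and JDP2 were the other gains in P320, at 1.25, 1.22 and 1.02, the last of which was lost without C replicate 1 (0.884). None of the 14 was gained at the middle doses, where their median was 0.76.

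FOS, an AP-1 subunit, had 38.4 and 33.6 CPM in P10 and 54.4 and 54.2 CPM in P320, against 26.6 and 40.1 CPM in C, with 0.11 and 0.70, neither called. HIF1A, the oxygen-regulated transcription factor, had 25.2 and 23.5 CPM in P10 and 35.1 and 38.4 CPM in P320, against 18.6 and 26.3 CPM in C, with 0.11 and 0.70, neither called. The same peaks had 0.73 and 0.78 at the middle doses.

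Growth signalling and adhesion genes had 31 of 33 members with a peak. In P320 9 were gained and in P10 4, none were lost in either, and the medians were 0.71 and 0.39, where all promoter and gene-end peaks had 0.35 and 0.13, and those of chromosome 14 had 0.37 and 0.18. JAG2, a ligand of Notch receptors, had 21.1 and 23.6 CPM in P10 and 19.4 and 19.7 CPM in P320, against 7.22 and 6.55 CPM in C, gains of 1.70 ± 0.24 and 1.51 ± 0.24 (adjusted p = 8.36e-05 and 0.000351). LGALS3, galectin-3, was gained by 1.40 and 1.44 and LTBP2, which binds fibrillin microfibrils, by 1.34 and 1.44. EML1 was the fourth gained in both groups. DACT1, FERMT2, YY1, DICER1 and CLMN were gained in P320 alone, between 1.03 and 1.30, of which CLMN was not called when any one library was left out (adjusted p up to 0.187), DACT1 not without C replicate 2 (0.969) and FERMT2 not without C replicate 1 (0.893) or P320 replicate 1 (0.957). AKT1 (0.75 and 0.86) and BMP4, a bone morphogenetic protein (0.39 and 0.77), were not called. At the middle doses 11 of the 31 were gained, with a median of 0.89, among them LGALS3 (1.49), DACT1 (1.49) and BMP4 (1.40), where all chromosome 14 promoter and gene-end peaks had 0.68.

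DNA repair and telomere genes had a peak for all 15 members. In P320 2 were gained, XRCC3 at its promoter shared with ZFYVE21 (1.02 ± 0.24, adjusted p = 0.00697) and CINP, which binds a cyclin-dependent kinase and shares its promoter peak with TECPR2 (1.01), and 0 were called in P10. Both calls were lost without C replicate 1, with 0.650 for XRCC3 and 0.723 for CINP. The list medians were 0.22 in P320 and -0.12 in P10, where all promoter and gene-end peaks of the genome had 0.35 and 0.13. PARP2 had 45.4 and 49.95 CPM in P10 and 66.9 and 62.3 CPM in P320, against 65.2 and 96.7 CPM in C, with -0.77 (adjusted p = 0.0218) and -0.33 (adjusted p = 0.371), neither called. RAD51B had 0.13 and 0.47, and neither was called. CINP was gained and REC8 lost at the middle doses.

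Interferon and immune signalling genes had 11 distinct peaks. In P10 3 were gained: TRAF3, PSME1, an activator of the proteasome (1.12 ± 0.19), and the peak shared by the leukotriene B4 receptors LTB4R and LTB4R2. That peak had 5.15 and 5.57 CPM in P320, against 12.1 and 14.1 CPM in P10, a fall of 1.29 (adjusted p = 0.00346, lost without P320 replicate 1 at 0.0584), with 4.35 and 3.02 CPM in C. In P320 TRAF3 and PSME1 (1.27) were gained against C. The P10 call of PSME1 was lost without C replicate 1 (0.928) and with scaling on promoter and gene-end peaks (0.991). IFI27, an interferon-stimulated gene, was higher in P320 than in P10 by 1.195 (adjusted p = 0.00105), a call lost with scaling on promoter and gene-end peaks (0.887).

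Developmental transcription factors, 16 of 18 with a peak, had 0 calls in P10 and P320. At the middle doses 5 were gained, among them SIX6, a homeobox gene of the eye, with 7.99 and 8.66 CPM at 20 uM, 10.7 and 10.0 at 40 uM, 11.1 and 9.62 at 80 uM and 7.53 and 8.65 CPM at 320 uM, and 2.38 and 1.89 CPM in C. FOXA1, a pioneer factor, had 0.94 in P10 (adjusted p = 0.00396) and 0.93 in P320 (adjusted p = 0.00686), under the fold limit, and 0.85 at the middle doses. In the imprinted region only BEGAIN and DIO3 of 8 genes had a peak, and BEGAIN was gained in P10 (1.53) and P320 (1.37). The serpin cluster had 3 peaks for 10 genes and 0 calls in P10 or P320, and the RNase A cluster 4 peaks for 13 genes, of which 2 were lost in T320, RNASE1 (-2.02) and RNASE7 (-1.98). Of 22 olfactory receptor genes 1, OR4Q3, had a peak, which was not called. The 20 constitutive promoters had 0 calls in P10 and P320, with medians of -0.36 and 0.13, and 0.70 at the middle doses.

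Across all 446 promoter peaks, the difference in the 9-day groups ran with base composition, in a split into 3 groups by GC content made after the data were seen. In P320 the median log2 fold change against C was 0.08 in the group with the lowest GC, 0.34 in the middle group and 0.86 in the highest, where all promoter peaks of the genome had 0.09, 0.32 and 0.79. In P10 it was -0.20, 0.04 and 0.54 on chromosome 14, and -0.17, -0.02 and 0.51 over the genome. At the middle doses these groups had 0.56, 0.68 and 0.78 on chromosome 14 and 0.25, 0.27 and 0.28 over the genome. The part of base composition in the gains at TRAF3, EML1 and CDC42BPB, whose windows are in the highest group, was not tested. Scaled on promoter and gene-end peaks, the P320 calls of NFKBIA, BAG5, GCH1, ERO1A, JDP2, PSME1, LGALS3, LTBP2, DACT1, FERMT2, YY1, DICER1, CLMN, XRCC3, CINP and BEGAIN were lost, with values between 0.561 and 0.996, and those of TRAF3, EML1, CDC42BPB and JAG2 were kept.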

How the data were processed

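ATAC-seq had been run on about 50,000 sorted or bulk Kuramochi cells per library by the Omni-ATAC protocol with paired-end sequencing, per the labels' protocols. The authors deposited whole-number read counts per consensus peak for 20 libraries on hg38, and all 20 columns were used. MACS2, Bowtie2, SAMtools, Picard, deepTools, HOMER, Trim Galore and DESeq2 are named in the submitters' processing notes; how the consensus was built and counted is not given in the sources used here. The labels do not say whether the 2 libraries of a group came from separate cultures. The p-values rest on the spread between such libraries, estimated over all groups together, which may be technical. When a library is left out, the group it came from adds nothing to that spread.

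Counts of all 105048 peaks were scaled by TMM and fitted with edgeR 4.0.16 (R 4.3.3, limma 3.58.1) with a mean for each of the 10 groups and quasi-likelihood tests, Benjamini-Hochberg adjusted; the low-count filter removed 0 peaks. Shifts and CPM came from the same scaling, with a prior count of 2 for log2 values. The fit was tested on simulated data. Peaks were named when they were among the 4 highest or lowest departures, or the 3 among promoter and gene-end peaks, with at least 2 CPM and groups that do not overlap; list members were the largest 2 to 4, plus PARP2, FOS, HIF1A, FOXA1, BMP4, AKT1, REC8, RAD51B and XRCC3. Members, lists, rules and the 40 Mb split were chosen with earlier results of these data known. Positions are printed as deposited. Replicate numbers are not treated as pairs. Alternatives were DESeq2 1.42.0, its size factors, total counts, scaling on promoter and gene-end peaks, medians over distal peaks only, a window offset, a filter at 2 CPM in 2 libraries, 10 Mb windows, a replicate block and leaving out each library. Some named items are not reported here.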

Additional observations from a re-analysis of the deposited data

Results flagged for a closer look

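In 14 instances, by the median of a window's peaks, both adapted libraries lay on one side of the 2 C libraries and both 9-day libraries at the same dose on the other. In each the adapted population was higher, which the choice of this chromosome favoured in advance, and the difference between the 2 effects was not tested. This held for 10 of the 18 windows at 10 uM (55.6%) and 4 at 320 uM (22.2%). On the other chromosomes 104 of 555 windows (18.7%) had the adapted population higher in this way at 10 uM and 29 lower, and 115 (20.7%) had it higher at 320 uM and 26 lower. The share at 320 uM was thus near that elsewhere. The adapted populations were sorted and no sort is named for the 9-day cells, which cannot be told apart from the time of exposure here.

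At 10 uM the shift of T10 minus that of P10, each against C, was 1.12 at 80 to 85 Mb, where T10 had 0.46 and P10 -0.65. It was 1.05 at 40 to 45 Mb, with 0.47 in T10 and -0.58 in P10, and 0.84 at 45 to 50 Mb, with 0.50 and -0.34. Further along the chromosome it was 0.78 at 50 to 55 Mb, 0.66 at 55 to 60 Mb, 0.71 at 60 to 65 Mb, 0.52 at 65 to 70 Mb and 0.49 at 75 to 80 Mb. Before 40 Mb it was 0.47 at 30 to 35 Mb and 0.29 at 35 to 40 Mb. By summed counts P10 was instead above C at 35 to 40 Mb (0.07), 50 to 55 Mb (0.05) and 65 to 70 Mb (0.11), of which only the last was called. At 60 to 65 Mb its sum was level with C (0.0002), and at the other windows flagged at 10 uM it was lower.

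At 320 uM the shift of T320 minus that of P320 was 0.70 at 50 to 55 Mb, where T320 had 0.55 and P320 -0.15. It was 0.65 at 60 to 65 Mb, 0.63 at 80 to 85 Mb and 0.54 at 45 to 50 Mb. By summed counts P320 was slightly above C at 50 to 55 Mb (0.02, not called) and lower at the other windows flagged at 320 uM.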

How the results depend on the processing

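The median shift of chromosome 14 at the middle doses was 0.447 in the fit reported, 0.411 with total counts, 0.297 with scaling on promoter and gene-end peaks and 0.400 over distal peaks only. For T320 against the middle doses it was -0.394, and -0.276 with scaling on promoter and gene-end peaks. For P10 against C (-0.107) it was -0.0742 with DESeq2 size factors, -0.255 with scaling on promoter and gene-end peaks, -0.175 over distal peaks only and -0.144 to -0.0505 without single libraries. For P320 against C (-0.0770) it was -0.0541, -0.526 and -0.190 in the same order, -0.155 with total counts and -0.0912 to -0.0676 without single libraries. For P320 against P10 (0.0973) it was 0.0869, -0.202 and 0.000668, 0.00747 with total counts and 0.0888 to 0.0997 without single libraries.

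With 10 Mb windows, 3 passed in P10, 2 in P320 and 0 in P320 against P10. Without single libraries 6 to 9 of the 18 windows passed in P10, 5 to 6 in P320 and 0 in P320 against P10, where total counts gave 1, DESeq2 5 and the replicate block 6 (4 higher, 2 lower). The labels name no shared source for a replicate number, and 28 of 45 pairs of groups, not all, correlated over 0.1. Peak calls were 162 for T320 against the middle doses with the window offset and 131 to 304 without single libraries, 419 to 841 for P10, 753 for P320 with scaling on promoter and gene-end peaks and 206 to 378 without single libraries, and 192 to 257 for P320 against P10.

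Among single peaks, none of them called, the sign turned for REC8 in P320 (-0.284 with scaling on promoter and gene-end peaks, -0.014 to 0.37 without single libraries), HIF1A in P10 (-0.025, and -0.114 to 0.384), FOS in P10 (-0.024, and -0.155 to 0.437), RAD51B in P10 (-0.007 with that scaling), AKT1 in P320 against P10 (-0.203 with that scaling) and FOXA1 in P320 against P10 (0.008 with the window offset, -0.14 to 0.122 without single libraries, 0.078 among them without P10 replicate 1). The turns without single libraries came without C replicate 1, or for FOXA1 without P10 replicate 1 or P320 replicate 2. The cause was not tested.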
